A study of Mus musculus with 6 samples.

Results

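The genes described here encode the nuclear-encoded subunits of the mitochondrial oxidative phosphorylation complexes, together with cytochrome c. They were chosen by symbol: complex I genes of the Nduf series, the 4 Sdh genes of complex II, the Uqcr genes and Cyc1 of complex III, the Cox4 to Cox8 families of complex IV, the Atp5 genes of complex V, and Cycs. This gave 88 of the 16135 genes in the table: 39 in complex I, 4 in complex II, 9 in complex III, 18 in complex IV, 17 in complex V and Cycs. Ndufa4 and Ndufa4l2 were counted with complex IV, where the Ndufa4 protein resides. Liver RNA from mice was sequenced in 6 libraries, 3 labelled ACSS2-flox and 3 labelled ACSS2-HKO. ACSS2-flox is the floxed control, and ACSS2-HKO, by the study's design text, is a hepatocyte-specific knockout of Acss2, the gene of the acetyl-CoA synthetase of the cytosol and nucleus. All the mice had received the same ethanol exposure, 10 days on the Lieber-DeCarli liquid diet and then 1 binge, so no library came from a liver without ethanol. The labels give no promoter for the Cre, no deleted exons, and no sex or age of the mice. Nor do they state that each library is its own mouse, so the p-values below measure the spread between libraries, which may be technical.

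Depth, recovered from the deposited FPKM values (fragments scaled to gene length and to the library total), was 33717125 to 39474527 fragments per library. Acss2 itself (gene ID 60525) read 87.8, 61.5 and 58.5 FPKM in the floxed libraries against 50.6, 38.4 and 45.7 FPKM in the HKO libraries. The groups did not overlap, and the difference was -0.60 ± 0.21 (log2 of FPKM + 1, SE; adjusted p = 0.637 by limma with Benjamini-Hochberg adjustment; p = 0.1 in a two-sided exact permutation test, the smallest that 3 against 3 allows). On the first principal component (47.2% of the variance), ACSS2-flox replicate 1 lay at -47.7 and ACSS2-HKO replicate 3 at 27.6, while the other 4 libraries lay between 2.5 and 8.5, so results are given with and without those 2 libraries. All 10 hepatocyte markers listed were in the table, and their summed level was highest in ACSS2-flox replicate 1 (102000 FPKM) against 55200 to 67000 FPKM elsewhere.

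Electrons from NADH enter the inner mitochondrial membrane at complex I and those from succinate at complex II. They pass through complex III and cytochrome c to oxygen at complex IV, and the proton gradient built on the way drives ATP synthesis by complex V. Hepatocytes are rich in mitochondria, and in ethanol metabolism the chain reoxidises the NADH that the oxidation of ethanol and acetaldehyde yields. Most subunits are encoded in the nucleus, while core membrane subunits of complexes I, III and IV, and 2 subunits of complex V, are encoded by mitochondrial DNA. The 13 mitochondrially encoded genes were not in the table used here.

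Factors known to bind promoters of respiratory chain genes include NRF1, GABPA, YY1 and the oestrogen-related receptor ERR alpha. Promoters from 250 bases before to 50 bases after the start were matched by symbol for 70 of the 88 genes (RefSeq, GRCm38.p6), and both strands were searched. The NRF1 word, GCGC and TGCGC with any 1 base between them, occurred in 17 of the 70 promoters (24.3%), against 12.2% of the 7952 tested genes with a promoter and 5.19% of all 27025 promoters. The GABPA word CCGGAAGT occurred in 5 (7.14%, against 9.86% of tested genes), the YY1 word ATGGCGGC in 6 (8.57%, against 6.33%) and the ERR alpha word TCAAGGTCA in 2 (2.86%, against 0.327%). In complexes I, II, IV and V, the 200 bases before the start are shown for the gene with the most NRF1 matches within them, with each match in capitals (read on the other strand, the word is GCGCA and GCGC with 1 base between them). These are Ndufb4 (chr16:37654369-37654568, minus strand, 3 matches), Sdha (chr13:74350241-74350440, minus strand, 3 matches), Cox6a1 (chr5:115348959-115349158, minus strand, 2 matches) and Atp5h (chr11:115419920-115420119, minus strand, 1 match).
Ndufb4: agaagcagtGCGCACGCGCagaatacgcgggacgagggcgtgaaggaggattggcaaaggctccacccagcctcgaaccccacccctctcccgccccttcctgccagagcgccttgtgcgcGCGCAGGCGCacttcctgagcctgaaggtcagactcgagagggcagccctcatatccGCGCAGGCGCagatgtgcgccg
Sdha: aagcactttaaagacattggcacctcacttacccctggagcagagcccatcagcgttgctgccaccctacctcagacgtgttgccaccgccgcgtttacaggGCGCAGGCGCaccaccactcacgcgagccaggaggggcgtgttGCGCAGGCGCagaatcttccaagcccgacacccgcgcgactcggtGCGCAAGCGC
Cox6a1: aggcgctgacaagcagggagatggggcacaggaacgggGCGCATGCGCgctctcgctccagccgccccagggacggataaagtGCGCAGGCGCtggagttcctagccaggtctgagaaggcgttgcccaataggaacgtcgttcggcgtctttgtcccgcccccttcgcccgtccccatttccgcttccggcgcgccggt
Atp5h: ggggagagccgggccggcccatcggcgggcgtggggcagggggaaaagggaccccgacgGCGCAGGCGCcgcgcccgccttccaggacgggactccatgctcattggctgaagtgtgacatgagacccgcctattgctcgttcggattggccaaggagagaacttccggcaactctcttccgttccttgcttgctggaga
In Uqcrc1, the 1 complex III gene with the word, it lay after the start and not within those 200 bases, so none is shown for that complex. The matches in Ndufb4 began 191, 79 and 22 bases before the start, and those in Sdha 98, 55 and 10 bases before it. Between the genotypes, the median log2 fold change was -0.18 in the 17 tested genes with the NRF1 word and -0.19 in the 51 without it.

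Most subunit genes read slightly lower in ACSS2-HKO than in ACSS2-flox, and for none was the difference larger than the spread between libraries by the test used. Of the 83 genes whose mean reached 1 FPKM, 73 had a fold change below 0 and 10 above 0, whereas 66% of all 9818 tested genes lay above 0 and 34% below. The median was -0.18 for the subunit genes and 0.10 for all tested genes on the log2(FPKM + 1) scale. None of the 83 passed an adjusted p of 0.05 in limma (0% of all tested genes did), and their adjusted p ran from 0.687 to 0.999. At an unadjusted p under 0.05 limma called 598 genes higher (6.09%) and 147 lower (1.5%), with no subunit gene in either direction. The voom fit on the recovered fragments called none at the adjusted threshold. It called 565 genes higher (5.75%) and 136 lower (1.39%) unadjusted, again with no subunit gene. Groups that did not overlap were found for 1232 genes that were higher (12.5%) and 289 that were lower (2.94%), and for none of the 83. Summed over the 88 genes, the level was 19980, 13802 and 16649 FPKM in the floxed libraries against 14809, 16135 and 12509 FPKM in the HKO libraries, that is 16810 ± 3092 against 14484 ± 1835 (SD, n = 3). ACSS2-flox replicate 1 was the highest and ACSS2-HKO replicate 3 the lowest, and the other 2 HKO libraries lay between the other 2 floxed ones.

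In the deposited values the direction rested on those 2 libraries. ACSS2-flox replicate 1 was the highest of the 6 in 66 of the 83 genes, although over all tested genes it was the highest in 15.7% and the lowest in 52.9%. ACSS2-HKO replicate 3 was the lowest in 51 of the 83 and the highest in none, against 17.2% and 21.3% of all tested genes. Relative to each gene's median over the 6 libraries, the subunit genes lay at a median of 0.39, -0.16 and 0.11 in the floxed libraries, against -0.03, 0.07 and -0.28 in the HKO libraries. The same 6 values over all tested genes were -0.23, -0.02, 0.03, 0.02, 0.03 and -0.01. ACSS2-flox replicates 2 and 3 thus lay on opposite sides of the ACSS2-HKO replicates 1 and 2. In bulk tissue, fewer cells of a type and less RNA per cell cannot be told apart.

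**Figure D1:**
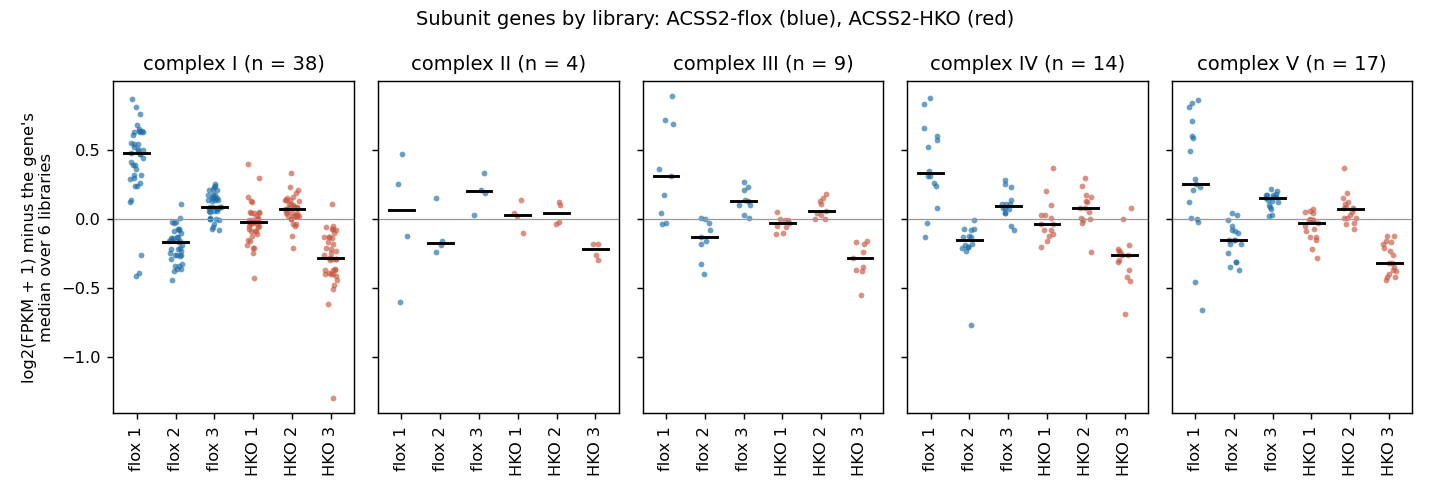
Each point is 1 subunit gene in 1 library, on the y axis as log2(FPKM + 1) minus that gene's median over the 6 libraries, in panels by complex (82 genes, Cycs left out), with bars at the median. The bar of ACSS2-flox replicate 1 is the highest in complexes I, III, IV and V, that of ACSS2-HKO replicate 3 is the lowest in every complex, and 1 complex I gene, Ndufa12, lies at -1.30.

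With both libraries left out, the subunit genes lay near 0 in the deposited values. Of the 83, 56 were then above 0 and 27 below, beside 55.2% and 44.8% of all tested genes, and the median was 0.05 against 0.03 for all tested genes. Limma called no gene at the adjusted threshold (0% of 9818), with a smallest adjusted p of 0.543 among the subunit genes. At an unadjusted p under 0.05, 527 genes were higher (5.37%) and 371 lower (3.78%), and Ndufa4l2 was the 1 subunit gene among them. With 2 libraries against 2, the groups did not overlap for 7 of the 83 that were higher (8.43%, against 23.4% of all tested genes) and 2 that were lower (2.41%, against 17.7%). The 7 were Atp5g2, Ndufa10, Ndufa12, Ndufa3, Ndufa4l2, Ndufa5 and Ndufs7, and the 2 were Atp5b and Sdha. Leaving out ACSS2-flox replicate 1 alone left 26 of the 83 above 0 (52.2% of all tested genes), and leaving out ACSS2-HKO replicate 3 alone left 21 (71.1%). Leaving out ACSS2-flox replicate 2 or 3 left 7 and 13 (65.8% and 72.7%), and leaving out ACSS2-HKO replicate 1 or 2 left 6 and 7 (63.2% and 62.5%).

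**Figure D2:**
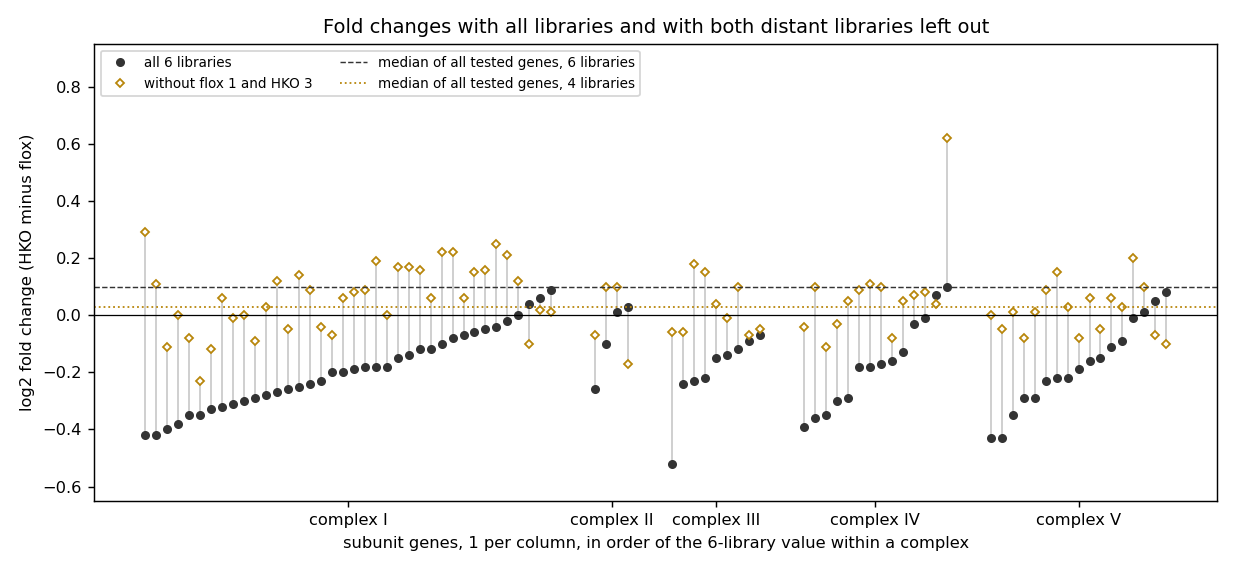
The y axis gives the log2 fold change on the log2(FPKM + 1) scale, ACSS2-HKO minus ACSS2-flox, for each subunit gene of complexes I to V, with filled circles for all 6 libraries and open diamonds for the 4 left without ACSS2-flox replicate 1 and ACSS2-HKO replicate 3. The circles run from -0.52 to 0.10, and most diamonds lie nearer to 0 or above it.

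Complex I, the NADH dehydrogenase, had 38 of its 39 genes tested, with means of 2.5 to 333 FPKM and a median fold change of -0.19 (0.06 without the 2 libraries). The core subunits hold the flavin and the iron-sulphur clusters and line the path of the electrons, and the accessory subunits surround them. Of the 7 core genes, 3 were above 0 (median -0.02), and all 29 accessory genes, leaving aside the near-copies named below, were below 0 (median -0.20). Without the 2 libraries, 6 of the 7 core genes (median 0.02) and 21 of the 29 accessory genes (median 0.09) were above 0. The 2 sets also differed in length, with medians of 1608 nucleotides for the core and 677 for the accessory genes. After the correction for gene length described below, 1 of the 7 core genes was above 0 (median -0.09). All 29 accessory genes were then still below 0 (median -0.28). Ndufs1, which encodes the largest iron-sulphur subunit, read 33.6, 48.7 and 47.5 FPKM in the floxed libraries against 48.8, 41.1 and 42.5 FPKM in the HKO libraries. Its lowest library was thus ACSS2-flox replicate 1, the reverse of most genes of the complex.

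Ndufb5, a subunit of the membrane arm (chromosome 3, 32737057 to 32751559, GRCm38.p6), had the smallest adjusted p of the complex. It read 128, 83.7 and 106 FPKM in the floxed libraries against 80.4, 95.02 and 63.6 FPKM in the HKO libraries, a difference of -0.40 ± 0.23 (limma, Benjamini-Hochberg adjusted p = 0.687). The groups overlapped, since ACSS2-HKO replicate 2 lay above ACSS2-flox replicate 2, and the difference was -0.11 without the 2 libraries. Ndufb2, also of the membrane arm, read 51.4, 32.6 and 42.0 against 30.9, 39.6 and 27.0 FPKM, with a difference of -0.35 ± 0.23. The 2 most abundant subunit genes of the complex had values close to these: Ndufb9 differed by -0.33 ± 0.21 and Ndufa6 by -0.38 ± 0.26, and without the 2 libraries by -0.12 and 0.00.

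Ndufa12, an accessory subunit near the NADH-oxidising end, was singled out after its values were seen. It read 81.9, 51.2 and 53.1 FPKM in the floxed libraries against 69.4, 59.2 and 22.2 FPKM in the HKO libraries. ACSS2-HKO replicate 3 stood far below the other 5 libraries, at -1.30 from the gene's median. The difference was -0.42 ± 0.41 with all libraries and 0.29 ± 0.16 without the 2 (limma, adjusted p = 0.826 and 0.622). Ndufb4b, Ndufb4c and Ndufs6b resemble Ndufb4 and Ndufs6 closely, so the split of fragments between them is uncertain. Ndufb4b read 1.56 to 3.78 FPKM in the 6 libraries and Ndufb4c 0.115 to 0.583 FPKM, beside 88.3 to 190 FPKM for Ndufb4.

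Complex II, succinate dehydrogenase, is also a citric acid cycle enzyme. It showed no common direction in the deposited values, with 2 genes above 0 and 2 below in either set of libraries. After the correction for gene length described below, all 4 lay below 0 (median -0.14), and likewise without the 2 libraries (median -0.10). Sdha, the flavoprotein (chromosome 13, 74322255 to 74350240, with the 3 NRF1 words shown), read 119, 201 and 206 FPKM in the floxed libraries against 168, 194 and 159 FPKM in the HKO libraries. ACSS2-flox replicate 1 was here the lowest library, and the difference was 0.03 ± 0.25, or -0.17 without the 2 libraries (limma, adjusted p = 0.984 with all). In Sdhb, the iron-sulphur subunit (chromosome 4, 140961271 to 140979198), ACSS2-flox replicate 1 was instead the highest library. The gene read 249, 157 and 227 against 184, 175 and 159 FPKM, a difference of -0.26 ± 0.22. The membrane anchors that bind haem, Sdhc and Sdhd, differed by -0.10 ± 0.20 and 0.01 ± 0.21. The Sdha and Sdhb levels in ACSS2-flox replicate 1 therefore deviated in opposite directions although the proteins form 1 enzyme.

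Complex III, the cytochrome bc1 complex, had all 9 genes below 0, with a median of -0.15, and 4 above and 5 below 0 without the 2 libraries. Uqcrb, the subunit of the quinone-binding region (chromosome 13, 66900576 to 66905350), had the lowest fold change of the 83 genes. It read 596, 288 and 389 FPKM in the floxed libraries against 321, 323 and 220 FPKM in the HKO libraries, a difference of -0.52 ± 0.30 (limma, adjusted p = 0.692). ACSS2-flox replicate 1 was well above every other library, while ACSS2-flox replicate 2 lay below ACSS2-HKO replicates 1 and 2, and without the 2 libraries the difference was -0.06. Uqcrh, the hinge protein, and Uqcr11, a small accessory subunit, differed by -0.24 ± 0.20 and -0.22 ± 0.26. The core proteins were nearer to 0: Uqcrc2 read 142, 135 and 141 against 133, 141 and 106 FPKM, a difference of -0.14 ± 0.18. Cyc1, the cytochrome c1 haem protein, read 125, 129 and 151 against 127, 140 and 113 FPKM, a difference of -0.09 ± 0.18. Cycs, the mobile cytochrome c (chromosome 6, 50562563 to 50566569), read 25.9, 22.9 and 24.9 against 25.5, 24.3 and 19.7 FPKM, with a difference of -0.09 ± 0.17. In Cyc1 and Cycs, ACSS2-HKO replicate 3 was the lowest library, and the other 5 lay at 125 to 151 and at 22.9 to 25.9 FPKM.

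Since the study concerns iron, the subunits that carry it were also looked at as groups. The 7 genes of iron-sulphur subunits (Ndufs1, Ndufs7, Ndufs8, Ndufv1, Ndufv2, Sdhb and Uqcrfs1) had a median of -0.15, with 2 above 0 and 5 below, and without the 2 libraries a median of 0.01, with 5 above and 2 below. The 4 haem-binding genes (Cyc1, Cycs, Sdhc and Sdhd) had a median of -0.09, with 1 above 0 and 3 below, and without the 2 libraries a median of 0.08, with 3 above and 1 below. After the correction for gene length described below, 6 of the 7 iron-sulphur genes were below 0 (median -0.23), and likewise without the 2 libraries (median -0.08). All 4 haem-binding genes were then below 0 (median -0.18), and 3 of 4 without the 2 libraries (median -0.01). Summed FPKM levels overlapped between the genotypes, at 584 to 816 against 571 to 655 FPKM for iron-sulphur subunits. For haem-binding ones they were 478 to 586 against 440 to 554 FPKM.

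Complex IV, cytochrome c oxidase, had 14 of 18 genes tested, 12 of them below 0, with a median of -0.17 (0.06 without the 2 libraries). Cox7b, a small subunit on the X chromosome (106015700 to 106022450), read 333, 218 and 238 FPKM in the floxed libraries against 202, 221 and 185 FPKM in the HKO libraries. Its difference was -0.35 ± 0.21 (limma, adjusted p = 0.706), and the groups overlapped at ACSS2-flox replicate 2 and ACSS2-HKO replicate 2. Cox6c and Cox7c, also small accessory subunits, differed by -0.39 ± 0.28 and -0.36 ± 0.30. Cox7c read 669, 328 and 399 against 355, 420 and 275 FPKM, and without the 2 libraries its difference was 0.10. The highest mean levels belonged to Cox4i1, which binds adenine nucleotides, and Cox6b1, on the intermembrane side, with differences of -0.13 ± 0.21 and -0.30 ± 0.23. Cox4i1 read 741, 543 and 677 against 595, 663 and 525 FPKM, so that 4 of the 6 libraries interleaved between the extremes.

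Several complex IV subunits have isoforms for other tissues, and the libraries held the liver forms almost alone. Cox8b, a heart and muscle form, was listed at 0 in 5 libraries, where 3 fragments would amount to 0.211 to 0.247 FPKM, and 1 fragment was recovered in ACSS2-flox replicate 3. Cox4i2, known from lung, read up to 0.367 FPKM and the muscle form Cox6a2 up to 0.495 FPKM, and both had libraries at 0. Cox7a1, the other muscle form, read 2.36 to 3.93 FPKM, and Cox7a2 had a mean 52.2 times as high per length. Muscle marker genes summed to between 0.735 and 1.40 FPKM in every library (7 of 9 in the table). Cox6b1 exceeded the testis form Cox6b2 by 758 times. Ndufa4 exceeded its paralog Ndufa4l2, a gene known to respond to hypoxia, by 406 times. Ndufa4l2 itself read 2.03, 0.490 and 1.45 FPKM in the floxed libraries against 2.28, 1.62 and 0.572 FPKM in the HKO libraries. The difference was 0.10 ± 0.34 and, without the 2 libraries, 0.62 ± 0.26 (limma, adjusted p = 0.954 and 0.543), at levels close to the pseudocount of 1. Between the groups, 6 isoform ratios differed by -0.70 to -0.01 on the log2 scale, and no difference was detected (two-sided exact permutation tests, raw p from 0.3 to 1.0, Benjamini-Hochberg adjusted 0.9 to 1.0).

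Complex V, the ATP synthase, had all 17 genes tested, with 14 below 0 and a median of -0.19 (0.01 without the 2 libraries). With the correction for gene length and without the 2 libraries, 16 of the 17 lay below 0 (median -0.14). By parts of the enzyme, the median was -0.11 in the 5 genes of the catalytic head and central stalk, -0.36 in the 4 of the peripheral stalk, -0.01 in the 3 of the c-ring and -0.22 in the 5 small membrane subunits. Without the 2 libraries these medians were -0.07, -0.02, 0.10 and 0.03, and the differences between parts were not tested. The parts also differed in median length, at 1879, 1037, 647 and 428 nucleotides. After the correction for gene length, with all libraries, their medians were -0.20, -0.41, -0.03 and -0.21. Atp5b, the catalytic beta subunit (chromosome 10, 128083307 to 128090388) and the gene with the highest mean of the 88, read 472, 766 and 838 FPKM in the floxed libraries against 740, 754 and 638 FPKM in the HKO libraries. ACSS2-flox replicate 1 was the lowest library, and the difference was 0.08 ± 0.26, or -0.10 without the 2 libraries. Atp5a1, the alpha subunit, had the same lowest and highest libraries, ACSS2-flox replicates 1 and 3. It read 339, 475 and 518 against 486, 458 and 413 FPKM, a difference of 0.05 ± 0.22. The gamma subunit gene Atp5c1 differed by -0.29 ± 0.20 and the membrane subunit gene Atp5md by -0.35 ± 0.26.

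The peripheral stalk gene Atp5h (chromosome 11, 115415691 to 115419919) read 435, 216 and 265 FPKM in the floxed libraries against 231, 249 and 176 FPKM in the HKO libraries. Its partner in the stalk, Atp5j, read 198, 105 and 120 against 101, 117 and 86.4 FPKM. Both differed by -0.43, with SEs of 0.28 and 0.26 (limma, adjusted p = 0.730 and 0.706), and without the 2 libraries by 0.00 and -0.05. In both genes ACSS2-flox replicate 1 was far above the other libraries, which overlapped between the groups. The 3 c-ring genes encode the same mature protein and differ in their import sequences. Atp5g3 had 2.08 times the mean level of Atp5g1 and 1.90 times that of Atp5g2, and their ratios were among the 6 tested above.

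**Figure D3:**
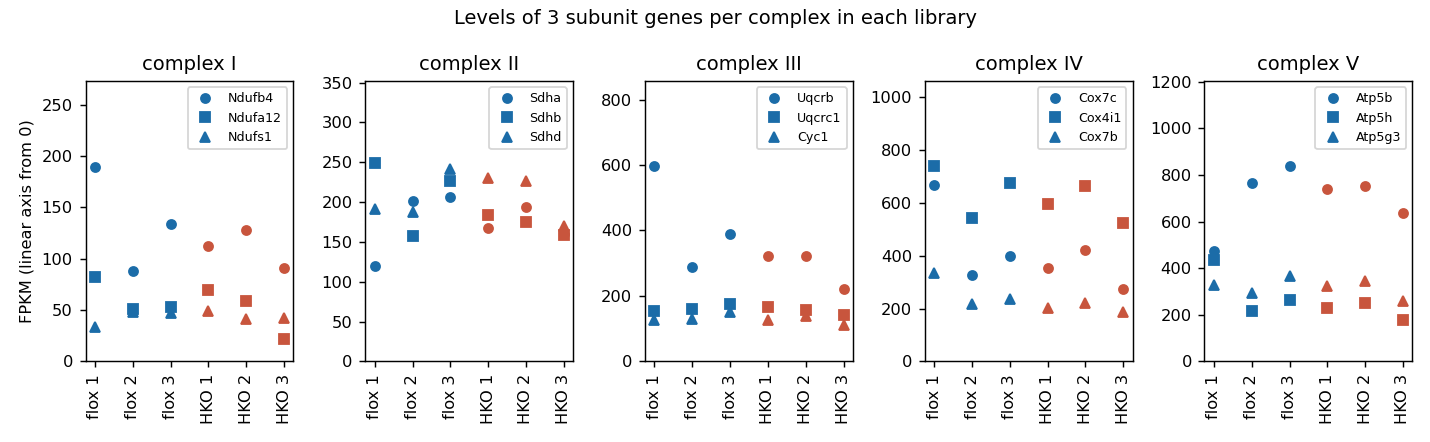
FPKM on a linear axis from 0 of 3 genes per complex, picked after the values were seen to show both orders, in the 6 libraries (blue, ACSS2-flox; red, ACSS2-HKO). Ndufb4, Uqcrb, Cox7c and Atp5h are highest in ACSS2-flox replicate 1, whereas Sdha, Ndufs1 and Atp5b are lowest there.

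In ACSS2-flox replicate 1 the shorter subunit genes tended to lie higher than the longer ones. The lengths recovered from the values ran from 320 to 3154 nucleotides for the 83 subunit genes, with a median of 764 against 3169 for all tested genes, and 56 of the 83 (67.5%) fell in the shortest of 10 classes of equal size by length. All 31 subunit genes under 600 nucleotides lay above their own median in that library (median 0.60), as did 14 of the 19 from 1200 to 2000 nucleotides (median 0.25) and 3 of the 8 of at least 2000 (median -0.14). Cox7a2l (1149 nucleotides) lay at -0.13, against this order. Ndufa11 (2661 nucleotides as recovered) lay at 0.32, but its longest GENCODE M21 transcript has 918 nucleotides. For Cox5a the 2 lengths were 3153 and 1818 nucleotides, so the place of both genes in the class of at least 2000 is uncertain. Over all tested genes the median in that library went from 0.15 in the shortest class to -0.46 in the longest, and the subunit genes of the shortest class lay at 0.50. Across the 83 genes, which share the library, Spearman's rho between length and the deviation was -0.56, against -0.39 across all 9818. The remaining libraries had slopes of either sign: rho was 0.39 in ACSS2-flox replicate 2 and 0.18 in replicate 3, and 0.36 and -0.29 in ACSS2-HKO replicates 1 and 2, against 0.38, 0.08, -0.05 and -0.13 across all 9818 genes. In ACSS2-HKO replicate 3 rho was -0.01 (0.10 across all genes), and the medians were -0.28, -0.26, -0.29 and -0.20 in genes under 600, from 600 to 1200, from 1200 to 2000, and of 2000 or more nucleotides.

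**Figure D4:**
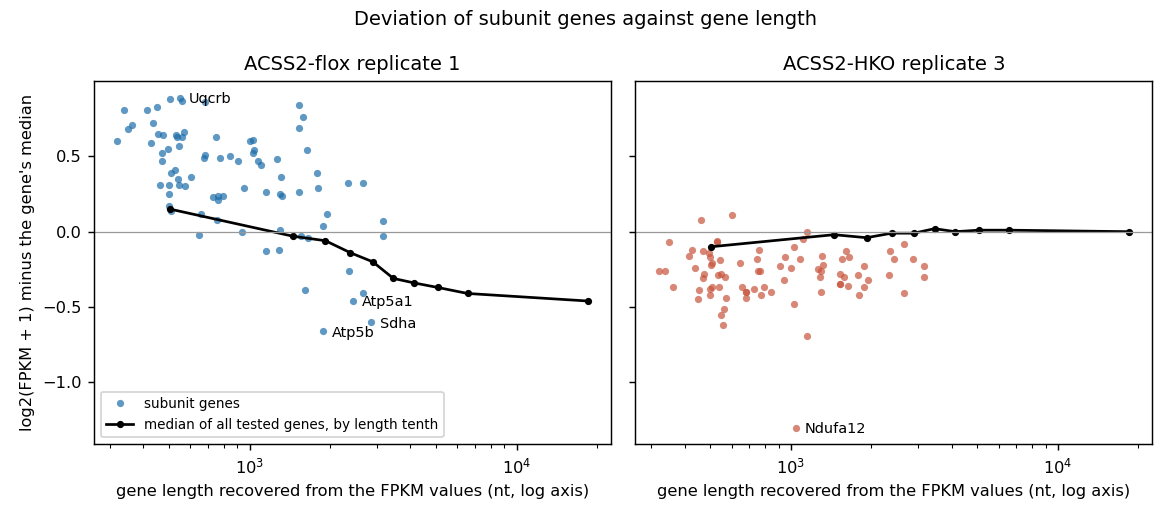
Deviation of log2(FPKM + 1) from the gene's median over the 6 libraries (y) against the gene length recovered from the FPKM values in nucleotides (x, log axis), in ACSS2-flox replicate 1 and ACSS2-HKO replicate 3, with points for subunit genes and a line for the median of all tested genes in each length class. On the left the points slope down with length and mostly lie above the line, and on the right 81 of 83 lie below 0 at every length.

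The fold changes also differed by length, with 31 of 31 below 0 under 600 nucleotides (median -0.23) and 4 of 8 below 0 at 2000 or more (median 0.01). After each library was corrected for gene length by a loess curve, 2 of the 83 genes were above 0 (Ndufa4l2 and Ndufv1), against 47.8% of all tested genes, and the median was -0.22 against -0.01. With the correction and without the 2 libraries, 15 were above 0 and 68 below, against 51.2% of all tested genes above 0, and the median was -0.09 against 0.01. By complex, 28 of 38 genes in I were then below 0, with 4 of 4 in II and 8 of 9 in III. In IV it was 12 of 14, and in V 16 of 17. The medians of I to V were -0.08, -0.10, -0.08, -0.09 and -0.14. Limma again called none at the adjusted threshold in the length-corrected values (0%). Unadjusted, it called 393 genes lower (4%), among them Cox7b, Ndufb2, Ndufb4b, Ndufb5 and Uqcrb, and 394 higher (4.01%) with no subunit gene.

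Marker lists of several cell types also stood out in the 2 distant libraries, and some kept their direction between the genotypes without those 2. The hepatocyte markers had 8 of 10 genes below 0 (median -0.31, or -0.12 without the 2 libraries) and lay at a median of 0.54 in ACSS2-flox replicate 1, against -0.31 in ACSS2-HKO replicate 3, high and low in the same libraries as the subunit genes. The 10 neutrophil markers summed to 7.99 to 17.2 FPKM in ACSS2-flox and to 38.2, 54.3 and 357 FPKM in ACSS2-HKO. All 4 tested markers were above 0 in either set of libraries (median 2.53, or 1.74 without the 2). The 10 macrophage markers summed to 327 to 465 FPKM and to 602, 559 and 1340 FPKM, with 10 of 10 above 0 in either set (median 0.90, or 0.43). In ACSS2-flox replicate 1 the 7 sinusoidal endothelial markers summed to 36.9 FPKM, against 123 to 185 FPKM in the other libraries, and in ACSS2-HKO replicate 3 they summed to 128 FPKM. All 7 were above 0 with all libraries (median 0.22), whereas 6 were below 0 without the 2 (median -0.35). The 5 tested red cell markers were all below 0 in either set (median -0.46, or -0.84). Stellate cell markers summed to 129 FPKM in ACSS2-HKO replicate 3, within the 89.1 to 173 FPKM of the other libraries. Relative to each gene's median, however, they lay highest in that library (median 0.55) and lowest in ACSS2-flox replicate 1 (-0.62). Of the 8 stellate markers, 7 were above 0 in either set (median 0.49, or 0.25). No marker of these lists was at 0 in every library, and the part of these cells in the subunit values was not tested.

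Genes related by function were read the same way. The assembly factors, which build the complexes without staying in them, had 28 of 51 tested genes above 0 and 23 below, with a median of 0.03 (0.12 without the 2 libraries), and none passed the adjusted threshold. By complex, the medians were 0.08 for I, -0.07 for II, -0.12 for III, 0.03 for IV and -0.05 for V. Without the 2 libraries they were 0.16, 0.07, 0.18, 0.15 and 0.08. Taco1, a translational activator of the mitochondrially encoded subunit COX1, read 3.83, 6.14 and 7.58 FPKM in the floxed libraries against 9.29, 10.1 and 9.92 FPKM in the HKO libraries. Its groups did not overlap, with a difference of 0.69 ± 0.23 (limma, adjusted p = 0.637), or 0.45 without the 2 libraries. Foxred1, a complex I assembly factor, was also above in all 3 libraries (7.87 to 8.44 against 9.35 to 11.4 FPKM, 0.32 ± 0.17), and Coa7, of complex IV assembly, was below in all 3 (6.89 to 8.73 against 5.89 to 6.21 FPKM, -0.30 ± 0.17).

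Of 14 tested regulators of mitochondrial biogenesis, 8 were above 0 and 6 below (median 0.04, or -0.05 without the 2 libraries), with none past the threshold. The mitochondrial transcription factor gene Tfb2m (-0.30 ± 0.18) and the mitochondrial RNA polymerase gene Polrmt (0.17 ± 0.16) had groups that did not overlap, in opposite directions. Of the 13 citric acid cycle genes, 7 were above 0 and 6 below (median 0.01 in either set of libraries). Of 7 tested carriers of adenine nucleotides, phosphate and the outer membrane, 4 were above 0 (median 0.10 in either set). Among them the uncoupling protein gene Ucp2 read 33.3, 43.6 and 41.9 against 49.9, 44.5 and 85.3 FPKM, a difference of 0.54 ± 0.26 (limma, adjusted p = 0.670), or 0.14 without the 2 libraries. The 8 genes of subunits, electron-transfer flavoproteins and regulators outside the symbol pattern had a median of -0.18, with 2 above 0 and 6 below, and without the 2 libraries a median of 0.10, with 6 above and 2 below. Of the 27 genes with the smallest p in their list, 3 a list, the 6 named here had groups that did not overlap, and the other 21 differed by -0.36 to 0.43 with groups that overlapped. Over all tested genes, the groups did not overlap for 12.5% that were higher and 2.94% that were lower. The 27 were picked by p in these same data, which favours groups without overlap, so the 6 are only described. None of the genes in these 4 lists passed the adjusted threshold in limma. Median lengths were 1763 nucleotides for the assembly factors, 4366.5 for the regulators and 2404 for the citric acid cycle genes. They were 1662 for the carriers and 2080.5 for the genes outside the symbol pattern, against 764 for the subunit genes.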

How the data were processed

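Liver RNA was sequenced in 3 ACSS2-flox and 3 ACSS2-HKO libraries. The authors deposited 1 table of FPKM per gene for all 6. The submitters' processing notes name mm10 and DESeq2, while aligner, counter and annotation were not given in the sources used. All 6 columns matched a sample by title. Library totals, gene lengths and whole fragment counts (within 0.01) were recovered from the FPKM values for 16135 of 16135 genes, and 246 lengths equalled the span of a RefSeq gene. For low genes the recovered length may be too short by a common factor. Of 84 subunit genes matched by symbol, 23 had a recovered length above that of their longest GENCODE M21 transcript. The lengths of Ndufa11, Cox5a and Atp5j were 2.90, 1.73 and 1.65 times that transcript. This lowers their FPKM against that of other genes and leaves their length class uncertain.

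The 9818 genes whose mean reached 1 FPKM were tested as log2(FPKM + 1) with limma 3.58.1 (R 4.3.3, trended empirical Bayes, Benjamini-Hochberg adjustment). Fold changes are on that scale and understate those of low genes. Of the 88 subunit genes, 83 passed, and Ndufb4c, Cox4i2, Cox6a2, Cox6b2 and Cox8b did not. The recovery and the fit were tested on simulated data. Single values were compared by exact permutation, which covers 20 arrangements. The genes named were Acss2, the 4 smallest p and 2 highest means per complex, every Sdh gene, Cyc1, Cycs, the isoform families, and, of the 3 smallest p per related list, those whose groups did not overlap, a narrowing made after their values were seen. Ndufa12, Ndufb4, Ndufs1, Ndufs6b and Uqcrc1 were added after their values were seen, as were the groups by role within a complex and by iron. The members and all lists were chosen with earlier results of these data known. Alternatives covered the pseudocount, filter, scaling, length, trend, library weights, replicate block, voom and each library left out. Same-numbered libraries did not deviate together (correlations 0.013, 0.003 and -0.063), so the numbers were not taken as pairs.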

Additional observations from a re-analysis of the deposited data

How the results depend on the processing

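No subunit gene passed the adjusted threshold under any alternative, and 43 results were followed through 20 alternatives. All kept their direction with the other pseudocounts (0.1 and 5), no filter, TPM, no trend and the voom fit on recovered fragments, and 40 could be followed with a minimum mean of 5 FPKM, all unmoved. The median of all tested genes was 0.10 as deposited, 0.15 as TPM, -0.01 with median-ratio scaling and -0.02 with quantile normalization, and under median-ratio scaling 1 of the 83 subunit genes was above 0 (median -0.31). Unadjusted calls went from 598 higher and 147 lower as deposited to 371 and 302 with median-ratio scaling. With both distant libraries removed (ACSS2-flox replicate 1 with ACSS2-HKO replicate 3), the share of subunit genes above 0 went from 12% to 67.5%, and the medians to 0.0526 over all, 0.0594 in complex IV and 0.0131 in complex V. The sign then turned for Ndufa6 (0.00393), Ndufa12 (0.292), Sdha (-0.17), Sdhc (0.105), Uqcr11 (0.146), Cox4i1 (0.0503), Cox7c (0.0954), Atp5a1 (-0.0702), Atp5b (-0.101), Atp5h (0.0047), Atp5md (0.00928) and Cycs (0.0556). Median-ratio scaling turned Sdha (-0.105), Sdhd (-0.121), Atp5a1 (-0.084) and Atp5b (-0.0531), and the length correction turned the same 4 (-0.0991, -0.0694, -0.0633 and -0.0167). Length correction without the 2 libraries, added after seeing the data, turned Sdha (-0.207), Sdhd (-0.0102), Atp5a1 (-0.12), Atp5b (-0.172), Cycs (0.029) and Ndufa12 (0.162). Quantile normalization turned Ndufa4l2 (-0.0753). Library weights (0.17 for ACSS2-flox replicate 1, 0.73 for ACSS2-HKO replicate 3, at least 1.39 for the rest) left 44.6% of subunit genes above 0, with medians of -0.00765 over all and 0.00543 in complex I, and turned Sdha (-0.178), Sdhc (0.0599), Uqcr11 (0.0472), Atp5a1 (-0.0681), Atp5b (-0.101), Cycs (0.00291) and Ndufa12 (0.00656). The fit with the replicate block called 4 genes, none of them a subunit gene, and left the median at -0.18. The cause of these turns was not tested.

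With each library left out in turn, the calls ran from 0 to 3 (3 without ACSS2-HKO replicate 2, none a subunit gene) and the share above 0 from 7.23% to 31.3%. The medians ran from -0.329 to -0.0546 over all, -0.362 to -0.0384 in complex I, -0.142 to 0.0366 in II, -0.287 to -0.0939 in III, -0.298 to -0.051 in IV and -0.329 to -0.0927 in V. The sign turned in at least 1 of these fits for Sdha (-0.23 to 0.161), Sdhc (-0.226 to 0.0189), Sdhd (-0.0654 to 0.152), Uqcr11 (-0.388 to 0.0374), Atp5a1 (-0.135 to 0.169), Atp5b (-0.177 to 0.238), Cycs (-0.16 to 0.0183), Ndufa12 (-0.722 to 0.0789) and Ndufa4l2 (-0.195 to 0.396). It turned in none of them for Ndufa6 (down to -0.53), Cox7c (-0.582), Cox4i1 (-0.259), Atp5h (-0.647) and Atp5md (-0.562), each lowest without ACSS2-flox replicate 2, while Ndufa4l2 stood at 0.618 with both distant libraries removed.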
